A study of Mus musculus with 18 samples.

Results

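The strongest peaks of each peak list were examined here: the 200 autosomal peaks with the highest score in each of 10 ATAC-seq libraries of mouse lung epithelium, 2000 peaks of the 54442 autosomal peaks in all lists. They were chosen by the authors' peak score alone, after exact repeats of a line were dropped, and ties were settled by chromosome and start. Cells came from lungs of adult C57BL/6 mice (label c57/bl6), 6 to 12 weeks old, treated with an inhibitor of G9a (label G9ai) or with vehicle. The labels name neither the compound nor its dose, route or duration. Cells lacked CD31 and CD45, carried Epcam and Sca-1, and were split by CD24 level into a negative (CD24neg), a low (CD24low) and a high (CD24high) population; the labels give no transgene or mutation. Each arm had 3 mice and each library 10000 cells, which gives 18 samples in 6 groups. Lists were analysed for 10 samples: with G9ai, replicates 2 and 3 in each population; with Vehicle, replicates 2 and 3 in CD24low and replicate 3 alone in the 2 other populations. The remaining 8 were not analysed here.

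ATAC-seq marks DNA that a transposase can reach, so a peak is a stretch of open chromatin, and the most accessible sites of a cell are often promoters of broadly active genes, many of them rich in CpG dinucleotides. G9a, the product of Ehmt2, methylates lysine 9 of histone H3 (H3K9), a modification linked to silenced chromatin. The airway and alveolar epithelium holds secretory club cells, multiciliated cells, basal cells and alveolar type 1 and type 2 cells, which differ in their open chromatin.

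Each list held 2499 to 12751 autosomal peaks, so that 200 peaks were 1.57% to 8% of a list. The lists were short subsets of the peaks called: peak numbers in the names reached 60603 to 98001. Lists of a group covered nearly the same sites, and lists of opposite arms in a population shared few, so agreement of replicates and absence from the other arm are properties of the lists. A site open in both arms of a population may be missing from them. No read counts come with the lists, and the depth of each library is unknown. None of Epcam, Cd24a and Ly6a (which encodes Sca-1) had a listed peak in any library, so the sort could not be checked against them. Pecam1, the gene of CD31, had a listed peak in 4 libraries and Ptprc, the gene of CD45, in 1, and neither had a peak among the strongest.

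The promoters under the leading strongest peaks are shown first, because promoter windows held a larger share of the strongest peaks than of the rest in every library. Each window runs from 250 bases before to 50 after a RefSeq transcription start (assembly GRCm38.p6, the build of the files), in the direction of the gene. Capitals mark matches, on either strand, of 5 promoter motifs: the GC box GGGCGG, the CCAAT box CCAAT, an ETS motif CCGGAAGT, an NRF1 motif GCATGCGC and the cAMP response element TGACGTCA. A match of one motif may share letters with a match of another, and a match describes letters only. The windows are, in order, those of the first promoter-overlapping gene of each group under the naming rule (Usp8 for CD24neg G9ai at chr2:126707078-126707377, + strand; Fam185a for CD24neg Vehicle at chr5:21424653-21424952, +; Hey2 for CD24low G9ai at chr10:30842734-30843033, -; Sde2 for CD24low Vehicle at chr1:180850901-180851200, +; Fyn for CD24high G9ai at chr10:39369549-39369848, +; Nutf2 for CD24high Vehicle at chr8:105860283-105860582, +) and of Hacd3 at chr9:65021668-65021967 (- strand), the recurrent one.
Usp8: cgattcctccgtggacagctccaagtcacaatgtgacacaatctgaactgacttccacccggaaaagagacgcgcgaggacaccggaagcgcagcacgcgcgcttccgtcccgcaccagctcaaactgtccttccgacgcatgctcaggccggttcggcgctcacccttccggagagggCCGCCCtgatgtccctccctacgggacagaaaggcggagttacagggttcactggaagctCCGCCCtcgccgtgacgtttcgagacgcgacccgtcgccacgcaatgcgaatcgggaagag
Fam185a: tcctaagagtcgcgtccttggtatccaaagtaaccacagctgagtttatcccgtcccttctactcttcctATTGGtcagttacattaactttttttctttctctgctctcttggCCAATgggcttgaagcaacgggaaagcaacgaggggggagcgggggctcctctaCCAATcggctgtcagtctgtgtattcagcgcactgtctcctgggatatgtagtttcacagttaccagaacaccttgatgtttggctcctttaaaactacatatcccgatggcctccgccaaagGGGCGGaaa
Hey2: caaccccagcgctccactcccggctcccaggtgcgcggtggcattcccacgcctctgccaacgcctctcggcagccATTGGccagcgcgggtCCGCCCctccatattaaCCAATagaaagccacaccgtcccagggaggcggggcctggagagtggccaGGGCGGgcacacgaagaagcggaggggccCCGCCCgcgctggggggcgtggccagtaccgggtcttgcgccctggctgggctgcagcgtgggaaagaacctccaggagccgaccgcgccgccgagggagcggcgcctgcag
Sde2: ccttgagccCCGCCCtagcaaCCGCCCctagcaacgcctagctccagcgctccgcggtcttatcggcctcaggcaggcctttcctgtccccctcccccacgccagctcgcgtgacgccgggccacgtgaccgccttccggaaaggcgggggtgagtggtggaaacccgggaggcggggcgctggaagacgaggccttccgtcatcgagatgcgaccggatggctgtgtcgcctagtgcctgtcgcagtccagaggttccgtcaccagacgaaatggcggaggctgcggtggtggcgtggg
Fyn: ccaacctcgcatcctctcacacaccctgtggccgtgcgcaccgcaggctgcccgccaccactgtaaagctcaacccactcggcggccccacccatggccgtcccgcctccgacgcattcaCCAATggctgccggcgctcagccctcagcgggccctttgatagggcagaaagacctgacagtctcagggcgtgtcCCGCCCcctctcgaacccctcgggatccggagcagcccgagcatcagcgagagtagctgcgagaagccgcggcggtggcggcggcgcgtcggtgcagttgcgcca
Nutf2: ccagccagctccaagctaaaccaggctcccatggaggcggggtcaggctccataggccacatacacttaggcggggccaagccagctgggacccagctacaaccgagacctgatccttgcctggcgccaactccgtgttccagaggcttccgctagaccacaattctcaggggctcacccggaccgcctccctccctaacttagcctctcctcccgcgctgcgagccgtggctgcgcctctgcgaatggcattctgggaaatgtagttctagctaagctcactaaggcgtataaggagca
Hacd3: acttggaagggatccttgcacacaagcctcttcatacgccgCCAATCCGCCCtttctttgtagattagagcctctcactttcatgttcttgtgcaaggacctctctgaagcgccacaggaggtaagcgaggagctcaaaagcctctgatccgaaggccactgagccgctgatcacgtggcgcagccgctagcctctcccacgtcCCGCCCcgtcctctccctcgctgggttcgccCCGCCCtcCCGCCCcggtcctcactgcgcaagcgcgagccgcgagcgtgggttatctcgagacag
The Usp8, Sde2 and Hacd3 windows held GC boxes, 2, 2 and 4 of them, and Hacd3 also 1 CCAAT box. The Fam185a window held 3 CCAAT boxes and 1 GC box, the Hey2 window 2 CCAAT boxes and 3 GC boxes, and the Fyn window 1 of each, while none of the 5 motifs matched in the Nutf2 window. The observed-to-expected CpG ratio ranged from 0.555 (Nutf2) to 1.17 (Usp8), against a median of 0.585 over 20063 autosomal promoter windows.

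The score fell steeply within the 200 peaks and then slowly. The highest score was 755 and 1152 in CD24neg G9ai replicates 2 and 3, 1199 in CD24neg Vehicle, 930 and 606 in CD24low G9ai, 447 and 475 in CD24low Vehicle, 1046 and 889 in CD24high G9ai, and 1135 in CD24high Vehicle. The sources used here do not give the scale of the score, which ranks peaks only within a list. The score at rank 200 ranged from 116 (CD24low Vehicle replicate 2) to 310 (CD24high Vehicle). It equalled the score at rank 201 in 8 of 10 lists, and in the others the pair was 143 and 142, and 310 and 309. Between 3 and 10 peaks of a list had the score of rank 200, so the edge of the set was partly settled by the tie rule.

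**Figure D1:**
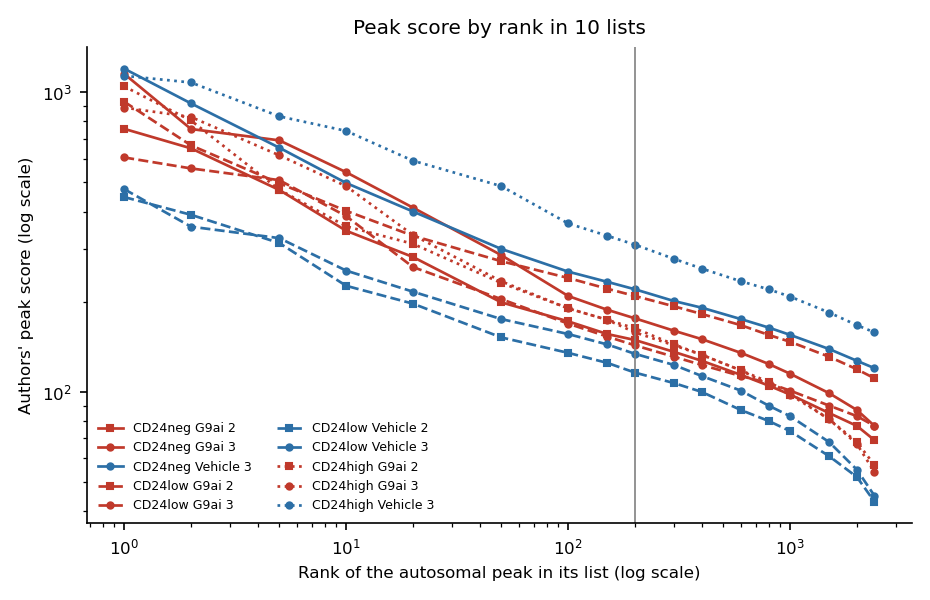
Authors' peak score against the rank of the autosomal peak in its list, both on log axes, for 10 libraries; color gives the arm (G9ai red, Vehicle blue), line style the population and marker the replicate. The grey line is rank 200, where the scores lay between 116 and 310; the 2 CD24low Vehicle curves run lowest.

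The strongest peaks were wider than the rest of their lists. Their median width was 191.5 and 283 bp in CD24neg G9ai, 237.5 bp in CD24neg Vehicle, 278 and 235 bp in CD24low G9ai, 154 and 159 bp in CD24low Vehicle, 233 and 280.5 bp in CD24high G9ai, and 265.5 bp in CD24high Vehicle. The rest of the lists had medians of 127 to 181 bp. The ratio of the medians was 1.60 ± 0.207 (SD over 6 groups, replicates averaged first). Width and score come from the same reads, so this is a description of what the score selects, with no test.

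The position of the peaks relative to genes was not used by the score. A gene end here means either boundary of a gene, its start or its 3′ end, unless 3′ is named. The share of the strongest peaks no more than 1000 bp from a protein-coding gene's start or end was 21.5% and 38.5% in CD24neg G9ai replicates 2 and 3, against 17.6% and 16.9% of the rest of the same lists. It was 21% against 14.8% in CD24neg Vehicle. In CD24low it was 20% and 27% with G9ai, against 16.5% and 16.3%, and 40% and 27.5% with Vehicle, against 22.5% and 23.9%. In CD24high it was 20% and 31.5% with G9ai, against 22.8% and 22.0%, and 21% against 14.2% with Vehicle. The strongest peaks had the higher share in 9 of 10 libraries, CD24high G9ai replicate 2 being the exception.

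Over the 6 groups the mean share was 25.8% for the strongest peaks and 18.04% for the rest, a difference of 7.80 ± 3.35 percentage points (SD, n = 6), positive in 6 of 6 groups. The two-sided exact sign-flip permutation test over groups gave p = 0.03125, the smallest that 6 groups allow, and the p adjusted by Benjamini-Hochberg over 4 tests was 0.125, also the smallest reachable, so the design could not pass 0.05 after adjustment. The test treats the 6 groups as independent, but each arm had 3 mice for its 3 populations, so groups of an arm share mice. Which libraries come from the same mouse is not given in the labels. The difference was as large, at 9.54 points, against those peaks of the rest that were at least as wide as the median strongest peak. It was 6.78 points, positive in 5 of 6 groups (exact p = 0.0625), without CD24high G9ai replicate 3.

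The higher share was seen at gene starts, while at 3′ gene ends the shares overlapped. Promoter windows (the 300 bases defined above; chromosome 18 not used here) overlapped 31 of 192 and 49 of 195 strongest peaks in CD24neg G9ai, 25 of 193 in CD24neg Vehicle, 24 of 196 and 37 of 192 in CD24low G9ai, 43 of 190 and 25 of 191 in CD24low Vehicle, 25 of 194 and 42 of 192 in CD24high G9ai, and 27 of 189 in CD24high Vehicle. These shares, 12.2% to 25.1%, were above those of the rest of the same list, 4.38% to 10.96%, in 10 of 10 libraries. The difference over groups was 9.87 ± 2.38 points (SD, n = 6; exact sign-flip p = 0.03125). Within 1000 bp of a 3′ gene end lay 1.59% to 4.69% of the strongest peaks and 2.65% to 3.38% of the rest, and the strongest were higher in 3 of 10 libraries.

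**Figure D2:**
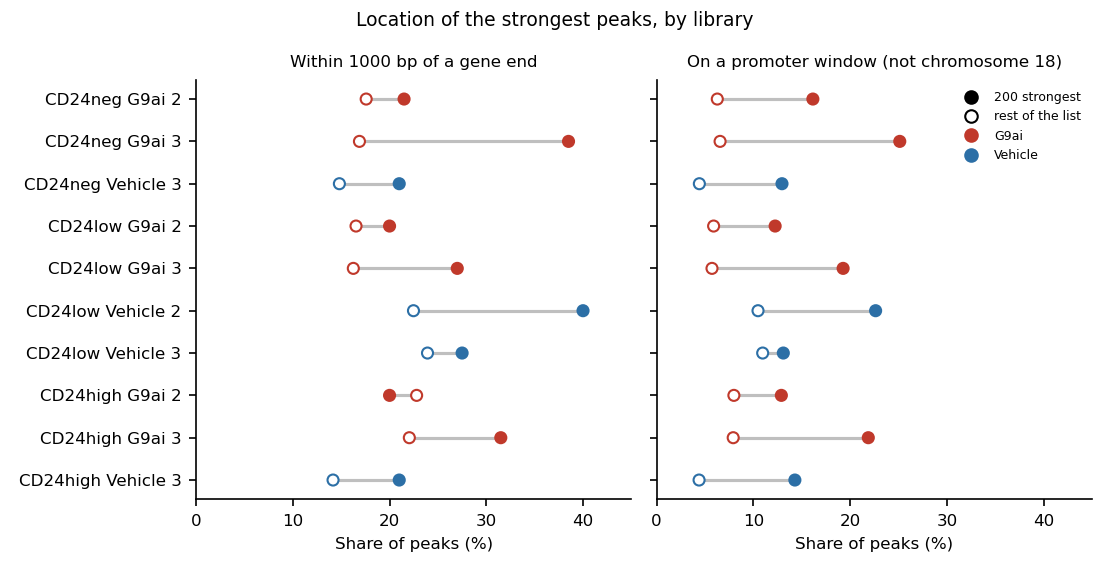
Share of peaks (%) within 1000 bp of a gene end (left) and on a promoter window (right) in each of 10 libraries, filled circles for the 200 strongest and open circles for the rest of the list, G9ai in red and Vehicle in blue. In the promoter panel the filled circle lies at a higher share, to the right of the open one, in all 10 libraries, and in the gene-end panel in 9.

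Measured from the peak centre, 10.8% ± 2.67 (SD, n = 6 groups) of the strongest peaks and 4.65% ± 1.93 of the rest lay within 0.1 kb of a start. Between 10 and 30 kb from a start the order was the opposite, 18.8% ± 0.727 against 23.0% ± 1.26, with the strongest lower in 6 of 6 groups. Over 100 kb away the shares were 19.4% ± 4.83 and 18.4% ± 1.83, with the strongest higher in 4 of 6 groups. Most of the strongest peaks overlapped no promoter window: such windows held 12.2% to 25.1% of them per library, chromosome 18 not used. Inside the span of a protein-coding gene lay 60% to 72.5%. Inside a gene and over 1000 bp from any gene end lay 58 to 109 of 200, and some of these overlapped a promoter window, as at Itprid2. Between 6.5% and 14% lay outside genes and over 50 kb from any gene end, near the 7.11% to 11.9% of the rest.

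**Figure D3:**
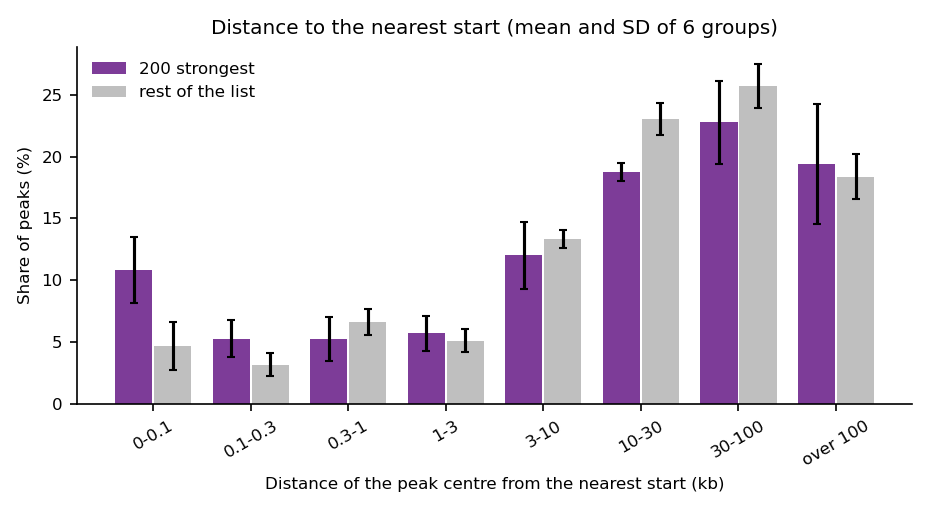
Share of peaks (%) by distance in kb from the peak centre to the nearest RefSeq start, as mean and SD of 6 groups, for the 200 strongest peaks (purple) and the rest of the list (grey). The strongest are higher below 0.3 kb in every group and lower between 10 and 30 kb in every group.

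The promoters under the strongest peaks were rich in CpG. The 321 windows overlapped by a strongest peak of any library had a median observed-to-expected CpG ratio of 0.790, against 0.714 for the 1663 windows overlapped only by other listed peaks and 0.585 for all windows. Within a library the median was higher under the strongest peaks than under the rest in 8 of 10 libraries, each with 26 to 57 windows under the strongest. The median GC content hardly differed, 61.75% under the strongest and 61.3% under the rest (means of 6 groups), and was higher under the strongest in 5 of 10 libraries. A GC box, the binding motif of SP factors, matched in 69.2% of the 321 windows, 57.5% of the 1663 and 47.0% of all, and was higher under the strongest peaks than under the rest in 7 of 10 libraries. The CCAAT box matched in 34.6%, 26.2% and 38.1%, with the strongest higher than the rest in 8 of 10 libraries. Single libraries ranged from 22.9% (CD24low Vehicle replicate 2) to 50% (CD24high Vehicle).

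The ETS motif matched in 8.72% of the windows under strongest peaks, 4.09% of those under other listed peaks and 5.28% of all, with the strongest higher than the rest in 9 of 10 libraries. The NRF1 motif, read by a regulator of mitochondrial genes, matched in 6.23%, 3.67% and 3.55%, with the strongest higher in 8 of 10 libraries. The cAMP response element matched in 3.43%, 2.59% and 2.30%, on 11 windows in the first set, with the strongest higher in 4 of 10 libraries. A TATA box (TATAAA) matched in 4.98%, 8.36% and 12.7%, and was higher under the strongest peaks in 1 of 10 libraries. The AP-1 motif TGANTCA matched in 6.54%, 5.65% and 7.06%, with the strongest higher in 7 of 10 libraries. The forkhead motif TGTTTAC matched in 3.12%, 3.19% and 3.04%, with the strongest higher in 4 of 10 libraries. Both are read by factors of epithelial enhancers. These are shares of windows, described without a test.

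Which peaks were strongest differed between replicates. Of the 200 strongest peaks, 195 to 200 overlapped a peak in the other replicate's list. Only 46 in CD24neg G9ai, 40 in CD24low G9ai, 31 in CD24low Vehicle and 68 in CD24high G9ai were also among its 200 strongest, a mean of 23.1% ± 7.88 (SD, n = 4 groups with 2 libraries). Of the rest of each list, 2.27% to 7.35% were among the other's strongest. The median rank in the other list was 496 to 1214, at 15.4% to 33.7% of its length, and 32 to 70 of the 200 ranked below its median. Across all peaks of a list, the Spearman correlation of the scores of overlapping peaks in replicates was 0.143 to 0.313 over 2473 to 7104 peaks, which share libraries and are not independent.

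The single strongest peak shows the same spread. In CD24high G9ai replicate 3 it lay on the Fyn promoter and ranked 3 in replicate 2, and in CD24low Vehicle replicate 3 it lay on the Sde2 promoter and ranked 2. In CD24neg G9ai replicate 2 it lay on the promoter of Chchd3, a gene of mitochondrial cristae (chr6:33059927-33060519, score 755), and ranked 1992 in replicate 3 with a score of 87. In CD24low G9ai replicate 2 it lay 186832 bp from any gene end (chr8:20122162-20122534, score 930) and ranked 7091 in replicate 3 with a score of 41. The strongest in CD24low G9ai replicate 3, on the promoter of the corepressor gene Cbfa2t2 (score 606), ranked 6255 in replicate 2.

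**Figure D4:**
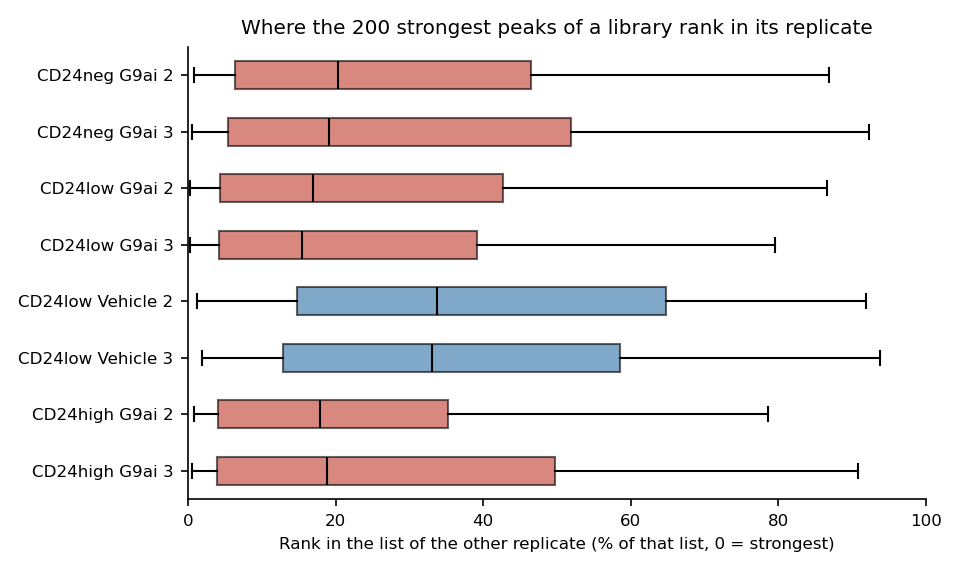
Rank that the 200 strongest peaks of a library have in the list of the other replicate of the group, in % of that list (0 is the strongest), for the 8 libraries with a replicate, G9ai red and Vehicle blue. Boxes are quartiles with the median as a line, and whiskers reach the percentiles 5 and 95. Medians lie between 15.4% and 33.7%, highest in CD24low Vehicle.

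Peaks among the strongest of both replicates were wider than those strongest in 1 replicate only, in all 8 libraries: 334 against 174 bp in CD24neg G9ai replicate 2 and 402.5 against 254 bp in CD24low G9ai replicate 2, with the smallest gap in CD24low Vehicle replicate 2, 175 against 152 bp. Of these shared peaks, 18 of 46 in CD24neg G9ai, 16 of 40 in CD24low G9ai, 16 of 31 in CD24low Vehicle, and 16 or 17 of 68 in CD24high G9ai lay within 1000 bp of a gene end. The share was not higher in every library than among peaks strongest in 1 replicate only: it was 39.1% against 16.2% in CD24neg G9ai replicate 2 and 39.1% against 38.3% in replicate 3. In CD24high G9ai it was 23.5% against 18.2% in replicate 2 and 25% against 34.8% in replicate 3. Replicates also differed in location. With G9ai, replicate 3 had the higher gene-end share among its strongest peaks in all 3 populations, by 17, 7 and 11.5 points in CD24neg, CD24low and CD24high, and CD24low Vehicle went the other way, by -12.5 points. The shares over the whole lists differed by 0.337 points at most between replicates. Since these lists covered nearly the same sites, their whole-list shares had to be close. The peak names carry 1 code for each arm and replicate number, the same in the 3 populations, and the sources used here do not say what the code stands for. Whether the difference follows a mouse, a sort or a library was not tested.

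In CD24neg G9ai, 46 regions were among the strongest of both libraries, 38 of them in or within 1000 bp of a protein-coding gene. The first by mean rank lay inside Khdrbs1, which encodes the RNA-binding protein Sam68, 900 bp from its start or end (chr4:129742511-129742978). It had ranks 3 and 5 and scores of 574 and 691. A region at the start or end of Dennd2c, a regulator of Rab GTPases (chr3:103102412-103103007), ranked 8 and 9, with scores of 359 and 546. The region in Sema3b, a secreted semaphorin (chr9:107605029-107605594), ranked 11 and 22, and that in Enoph1, an enzyme of methionine salvage (chr5:100048005-100048319), ranked 12 and 27. Promoter regions were those of Usp8, a deubiquitinase of endosomes (chr2:126707112-126707558, ranks 16 and 23, scores 304 and 394), and of Micos10, a subunit of the mitochondrial cristae complex (chr4:139130750-139131227, ranks 10 and 33). None of the 6 had a listed peak in another group. Of all 1783 regions of merged strongest peaks, 1248 (69.99%) lay in or within 1000 bp of a protein-coding gene. The shares of single groups were not compared with it by a test. Of the same 1783 regions, 27.9% were listed in 2 or more populations and 14.4% in both arms.

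CD24neg Vehicle had 1 library, so its ranks have no replicate check. Its strongest peaks lay on the promoter of Fam185a, within the span of Ccdc146 too (chr5:21424652-21425329, score 1199) and on the promoter of Psma4 next to Hykk (chr9:54950566-54950932, score 918). Psma4 and Psma3 both encode subunits of the proteasome core, and a promoter window of Psma3 held the peak at rank 3 (chr12:70974452-70974778, score 802). The promoter of Trim44 (chr2:102400923-102401605) ranked 4 with a score of 677, and the promoter of the mitochondrial ribosome gene Mrps9 (chr1:42851037-42851567) ranked 6 with 555.

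In CD24low G9ai, 40 regions were strongest in both libraries, 30 of them gene-linked, against 1248 of all 1783 merged regions. The promoter of Hey2, a repressor induced by Notch signals (chr10:30842698-30843438), ranked 2 and 9, with scores of 665 and 408. Regions at the start or end of Pdcl3, a phosducin-like protein (chr1:38987180-38988111, ranks 4 and 3), and of the fucosidase gene Fuca2 (chr10:13500869-13501384, ranks 8 and 7) were also high in both. Regions near the start or end of Usp53 (chr3:122983863-122984752, ranks 13 and 12) and of Rbx1, a RING subunit of ubiquitin ligases (chr15:81466557-81466923, ranks 23 and 11), followed. So did a promoter region of the splicing factor gene Hnrnpf (chr6:117916800-117917230, ranks 29 and 19). The Hnrnpf region was also listed in CD24high Vehicle, at rank 6216 with a score of 102.

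In CD24low Vehicle, 31 regions were strongest in both libraries, 23 of them gene-linked, against 1248 of all 1783 merged regions. The promoter of Sde2, a gene of splicing and replication control (chr1:180850668-180851174), ranked 2 and 1, with scores of 390 and 475. A region within the spans of both Emc8 and Cox4i1, which encodes a part of the last respiratory chain complex (chr8:120667994-120668393) ranked 6 in both libraries, with scores of 276 and 314. A region near the start or end of Erlin2 (chr8:27023558-27023971, ranks 14 and 2) followed. So did the promoters of the pyrophosphatase gene Ppa1 (chr10:61648406-61648973, ranks 8 and 15) and of Hacd3, an enzyme of fatty acid elongation (chr9:65021602-65021948, ranks 33 and 3). A region inside Tmbim6, an inhibitor of cell death, 4628 bp from its start or end (chr15:99405262-99405421), ranked 72 and 12.

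In CD24high G9ai, 68 regions were strongest in both libraries, 51 of them gene-linked, against 1248 of all 1783 merged regions. The promoter of Fyn, a Src-family kinase (chr10:39369484-39369993), ranked 3 and 1, with scores of 661 and 889. Of the 6 leading genes, 2 held regions deep inside their span: Arhgap24, a GTPase-activating protein, 253197 bp from an end (chr5:102460395-102460994, ranks 7 and 5), and Kcnn2, a calcium-activated potassium channel, 126030 bp from an end (chr18:45559276-45559857, ranks 8 and 21). Promoter regions of Supt4a, a transcription elongation factor (chr11:87737229-87737642, ranks 18 and 13), Cyb5r4, a cytochrome b reductase (chr9:87021803-87022350, ranks 20 and 16), and Itprid2 (chr2:79634854-79635653, ranks 15 and 24) completed the 6. None of the 6 was listed in another group, while 27.9% of all 1783 merged regions were listed in 2 or more populations and 14.4% in both arms.

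CD24high Vehicle, with 1 library, was led by the promoters of Nutf2, which carries the GTPase Ran into the nucleus (chr8:105860229-105860870, score 1135), and Capsl (chr15:9435677-9436145, score 1078). A region at the start or end of Gmppb, an enzyme of sugar nucleotide synthesis, next to Ip6k1 (chr9:108048928-108049418) ranked 3 with 913. A region on promoter windows of both Abce1, a ribosome recycling factor, and Anapc10, a subunit of the anaphase-promoting complex (chr8:79711425-79711933), ranked 4 with 836. The promoter of Kif3a, a motor subunit needed to build cilia (chr11:53567173-53567769), ranked 5 with 831, and that of Psmc3ip, a meiotic recombination factor, next to Retreg3 (chr11:101095336-101095785), ranked 6 with 815.

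Few strongest peaks recurred between groups. With any overlap (1 bp or more) merged, the 2000 peaks formed 1783 regions, of which 1570 were strongest in 1 library, 209 in 2 and 4 in 3, and 0 in more. In 2 or more populations 31 regions were strongest, in all 3 populations 0, and in both arms 15. Being listed at any rank was more common: 498 regions had a peak in lists of 2 or more populations and 256 in lists of both arms. Within a population, 0 to 8 of 200 strongest peaks overlapped a peak of the opposite arm, and 0.186% to 3.59% of the rest did.

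Of the strongest peaks, 18% and 12.5% in CD24neg G9ai overlapped a list of the same arm in another population, 16.5% in CD24neg Vehicle, 6.5% and 5% in CD24low G9ai, 24% and 24.5% in CD24low Vehicle, 19% and 28.5% in CD24high G9ai, and 10% in CD24high Vehicle. The rest of the same lists had 13.1% and 13.7%, 17.3%, 10.0% and 10.1%, 23.9% and 23.9%, 15.8% and 15.1%, and 12.9% in that order. The difference over 6 groups was 0.409 ± 4.46 points (SD; exact sign-flip p = 0.844, adjusted 0.9375), above 0 in 3 groups. For lists of the opposite arm in other populations it was -0.189 ± 4.02 points (exact sign-flip p = 0.9375, adjusted 0.9375), above 0 in 2 of 6 groups. A higher or lower recurrence of the strongest peaks was therefore not detectable, and the sign of both differences changed with the number of peaks taken: with 100 peaks per library they were -1.27 and 0.504.

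**Figure D5:**
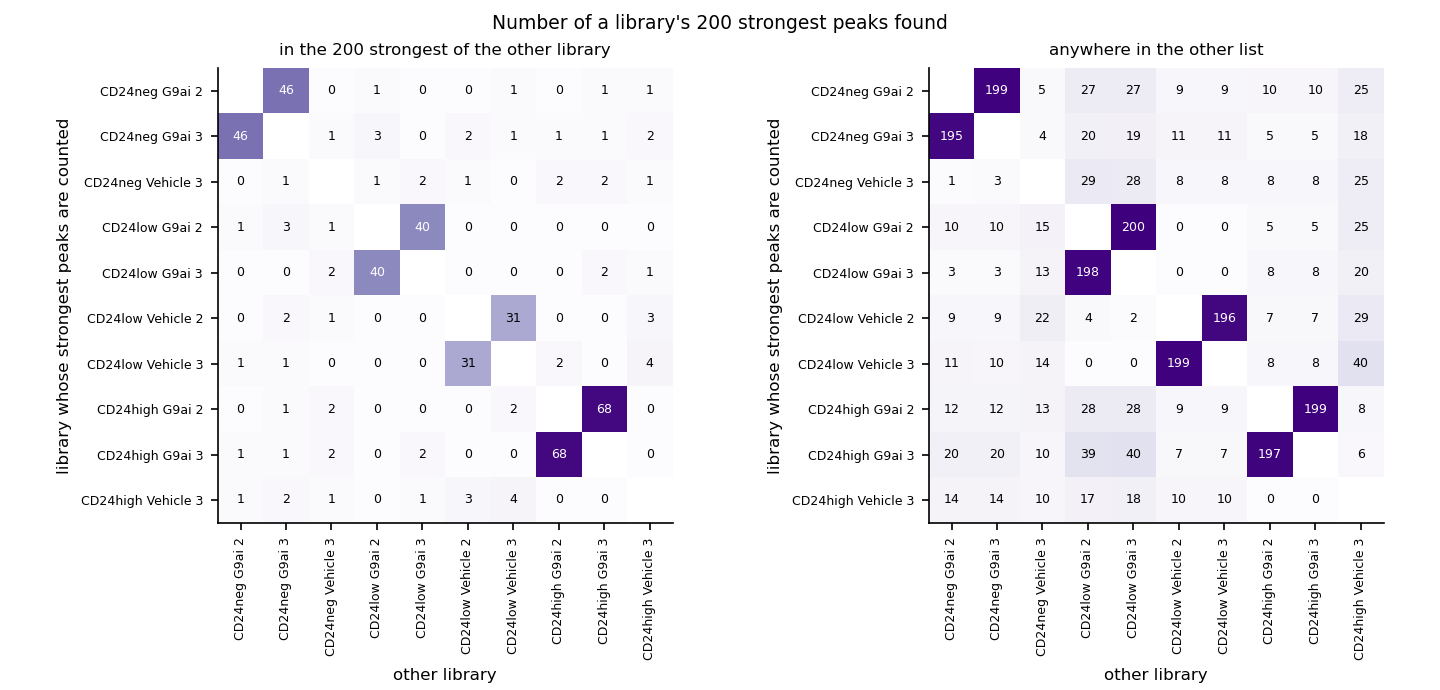
Number of a library's 200 strongest peaks (rows) that overlap the 200 strongest of another library (left) or any peak of its list (right), for 10 libraries; darker cells hold more. Replicates of a group share 31 to 68 on the left and 195 to 200 on the right, and no other pair shares more than 4 on the left.

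Regions strongest in more than 1 group included several general cell genes. The Hacd3 promoter was strongest in 3 libraries, both of CD24low Vehicle (above) and CD24high Vehicle, at rank 65 with a score of 420. A region inside Clic6, a chloride channel family member (chr16:92538395-92538740), was strongest in CD24neg Vehicle (rank 39) and in both CD24high G9ai libraries (ranks 29 and 143). The region inside Oacyl (chr18:65739631-65740087) was strongest in CD24neg Vehicle (rank 40) and in both CD24high G9ai libraries (ranks 12 and 30), and was listed in both CD24low G9ai libraries at ranks 495 and 882. The fourth, with no gene within 1000 bp (chr15:88837148-88837824), was strongest in both CD24neg G9ai libraries (ranks 75 and 39) and in CD24high Vehicle (rank 146). For 3 of these 4, the arms in which the region was strongest were opposite in the 2 populations.

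The Psma3 promoter region ranked 3 in CD24neg Vehicle and 10 in CD24low G9ai replicate 3, but 1022 in replicate 2. The promoter of Atp6v1e1, a subunit of the vacuolar proton pump (chr6:120822349-120822814), ranked 12 in CD24neg G9ai replicate 3 and 801 in replicate 2, and in CD24low Vehicle ranked 5 in replicate 2 and 2460 in replicate 3. The region at the start or end of the mitochondrial ribosome gene Mrpl38 (chr11:116138530-116139105) was listed in all 6 G9ai libraries and in no Vehicle library. Its ranks were 618 and 15 in CD24neg, 22 and 1695 in CD24low, and 298 and 1606 in CD24high. Replicate lists covered nearly the same sites, so the 6 libraries stand for 3 populations. Lists of opposite arms shared few sites, so absence from Vehicle is a property of the lists. Of all 1783 merged regions, 3.03% were listed in all 3 populations and 14.4% in both arms. The promoter of Ttll4, a polyglutamylase of tubulin (chr1:74661458-74662040), ranked 5 and 518 in CD24neg G9ai and 46 and 7043 in CD24low G9ai. In none of Atp6v1e1, Mrpl38 and Ttll4 was the region among the strongest of both replicates of a group.

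The region at the start or end of Greb1l (chr18:10324674-10325342) was listed in 7 libraries of all 3 populations. It was strongest in CD24neg G9ai replicate 3 (rank 51) and CD24low Vehicle replicate 2 (rank 18). In CD24low it was listed in both arms, at ranks 3643 and 5948 with G9ai. The promoter of Rem2, a small GTPase gene (chr14:54475973-54476357), was listed only in the Vehicle libraries of CD24neg and CD24high, at ranks 43 and 33. Ly6g6c (chr17:35068577-35068870) had a strongest region in CD24neg Vehicle and CD24low Vehicle replicate 2, at rank 46 in both. Regions at Slc23a4 (chr6:34989371-34989529) and inside Ralgps1 (chr2:33177742-33178190) were strongest in opposite arms of 2 populations, Slc23a4 in CD24low Vehicle replicate 3 (rank 69) and CD24high G9ai replicate 2 (rank 30), Ralgps1 in CD24neg G9ai replicate 3 (rank 102) and CD24high Vehicle (rank 15).

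The arms did not differ detectably in the location of the strongest peaks. The gene-end share of the strongest peaks was 26.4% with G9ai and 25.3% with Vehicle (means of 3 populations), a difference of 1.17 points (exact permutation of the arms within populations, two-sided p = 0.852 over 54 arrangements, adjusted 0.9375). By population it was 9 points higher with G9ai in CD24neg, lower in CD24low (G9ai minus Vehicle -10.25 points) and 4.75 higher in CD24high. The whole lists differed in the same directions, with gene-end shares of 17.9% with G9ai against 14.96% with Vehicle in CD24neg, 16.6% against 24.04% in CD24low and 22.7% against 14.3% in CD24high. In CD24neg, G9ai replicate 2 alone had 21.5% against 21% with Vehicle. In CD24low, the population with replicates in both arms, the shares were 23.5% ± 4.95 with G9ai and 33.75% ± 8.84 with Vehicle (SD, n = 2 each). Both G9ai libraries lay below both Vehicle libraries there, which 2 against 2 libraries cannot bring below an exact p of 0.333. The direction of the mean difference turned when 1 library was left out, for each of 5 libraries. The values were -1.67 (without CD24neg G9ai replicate 3), -0.917 (without CD24low Vehicle replicate 3) and -0.75 (without CD24high G9ai replicate 3). With only 2 populations left in the mean, they were -2.75 (without CD24neg Vehicle replicate 3) and -0.625 (without CD24high Vehicle replicate 3).

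Counts of strongest peaks in fixed gene lists were small. Of 9342 protein-coding genes with a listed peak in or within 1000 bp of them, 1249 (13.4%) held a strongest peak in some library. Of 24 club cell genes, 17 had a listed peak and 4 a strongest one. Scgb1a1, the gene of the main club cell secretory protein, had it at its start or end in CD24low G9ai replicate 2 (chr19:9087857-9088263, rank 134, score 226). The same site ranked 1646 in replicate 3. Pigr, the transporter of immunoglobulin A (chr1:130832255-130832564, rank 130), and Gabrp, a receptor subunit of epithelia (chr11:33579640-33580016, rank 6, score 472), had theirs in the same library and ranked 4135 and 2514 in replicate 3. Cldn10, a claudin of tight junctions, had one in CD24low Vehicle replicate 3 (rank 42), which ranked 1802 in replicate 2.

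Of 34 multiciliated cell genes, 28 had a listed peak and 4 a strongest one: Myb, an early regulator of the lineage, in CD24high G9ai, the tubulin gene Tuba1a in CD24low Vehicle, the axonemal gene Hydin in CD24neg G9ai and Sec14l3 in CD24neg Vehicle. Alveolar type 2 genes had 3 of 16 (Lamp3, Lpcat1 and Ppp1r14c) and alveolar type 1 genes 4 of 16 (Cav2, Spock2, Lmo7 and Gprc5a). Lamp3, of the lamellar body pathway, ranked 9 in CD24neg Vehicle (chr16:19699125-19699634, score 529), and Lpcat1, an enzyme of surfactant lipid, ranked 23 in CD24high G9ai replicate 3 and 1760 in replicate 2. Among these lineage genes only Ppp1r14c was strongest in both replicates of a group, at ranks 83 and 77 in CD24high G9ai. The basal list had 1 of 7, Dst, with 2 separate sites in CD24neg G9ai and CD24low Vehicle. Over all genes with a listed peak the share was 13.4%.

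Of 14 general epithelial genes with a listed peak, 5 had a strongest one: the cadherin gene Cdh1 (CD24neg Vehicle, rank 124), the keratin gene Krt18 (CD24high G9ai replicate 2, rank 117), and the transcription factor genes Ehf, Sox2 and Klf5. Sox2, a regulator of airway epithelium, ranked 32 in CD24neg G9ai replicate 3 (chr3:34649596-34650007, score 372) and 3735 in replicate 2. Lists of cells that the gate should exclude had 1 of 13 (endothelial, Tek in CD24neg Vehicle, rank 104), 2 of 8 (leukocyte, Cd79a and Fcer1g) and 0 of 8 (mesenchymal). Their part in the results was not tested. In these short lists a share such as 5 of 14 differs from 13.4% by few genes.

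Of 17 Notch pathway genes with a listed peak, 5 (29.4%) had a strongest one, with roles from receptor to target. Over all genes with a listed peak the share was 13.4%, and the difference was not tested. The receptor gene Notch1 ranked 101 in CD24neg G9ai replicate 2 and 1557 in replicate 3, and Lfng, which adds sugars to the receptor, ranked 106 in CD24low Vehicle replicate 3 and 948 in replicate 2. The coactivator genes Maml2 (CD24high G9ai, ranks 10 and 119 at chr9:13442073-13442610) and Maml3 (CD24neg G9ai, 2 sites 1 in each replicate) and the target Hey2 were the others, and Hey2 and Maml2 were strongest at 1 site in both replicates. Of 21 H3K9 methylation genes with a listed peak, 3 (14.3%) had a strongest one, near the 13.4% of all genes. The demethylase gene Kdm3b had a strongest region 20 bp outside its start or end in both CD24low Vehicle libraries (chr18:34776840-34776988, ranks 87 and 93). Cdyl, a reader of the mark, and Mecom had one each in 1 library of CD24low. Ehmt2 itself had a listed peak in 2 libraries and none among the strongest.

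Housekeeping lists varied. Of 12 proteasome genes with a listed peak, 5 held a strongest one (Psma3, Psma4, Psma6, Psmb5 and Psmd3), and Psmd3, a lid subunit, was strongest in both CD24low G9ai libraries (chr11:98682125-98682560, ranks 14 and 48). Mitochondrial ribosome and respiratory chain genes had 4 of 25 (Mrps9, Mrps18b, Ndufb2 and Cox4i1), each in a Vehicle group; Mrpl38, strongest in G9ai libraries, is not in that list, and the arms were not compared by a test. Splicing and RNA-binding genes had 5 of 28 (Hnrnpf, Snrpd1, Khdrbs1, Sfpq and Dcp1a), and cytosolic ribosomal protein genes 1 of 17 (Rpl7). Of 1249 genes with a strongest peak, 88 held one in 2 or more groups and 52 in both arms. In all 3 populations it was 4 genes: Ldlrad3, Mast4, the sodium channel subunit gene Scnn1b and Ski, a repressor of TGF-beta signals. Each merged region of these 4 genes was among the strongest of 1 library.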

How the data were processed

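The submitters' processing notes name FastQC, Bowtie2, MACS2 and mm10, without versions or settings; the sources used here do not state read shifting, duplicate removal or how the arm-specific subsets were made. The deposited files list peak intervals with the authors' peak score, whose scale is not given. Repeated lines (47 to 472 per file) were dropped, autosomal peaks were ranked by score, and the first 200 were set against the rest. The members and gene lists were chosen with earlier results of these data known. Genes (20665 autosomal protein-coding) and promoter windows (20085, of 16457 genes, not on chromosome 18) came from RefSeq GRCm38.p6, the same build; 467 of 475 list names matched. Replicates of a group were averaged, and groups were tested by exact sign-flip or by exact permutation of arms within populations, with Benjamini-Hochberg adjustment over 4 tests.

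Named genes were, per group, up to 6 genes of regions strongest in every library of that group by mean rank, up to 12 genes of regions strongest in several populations or both arms, and list genes strongest in every library of a group, leaving out Gm, Rik and Olfr symbols (1 gene so selected is not reported here); other list genes and the single strongest peak of a library were chosen after their values were seen. Alternatives changed the number of peaks, repeats, sex chromosomes, gene distance, overlap and libraries. The overlap and sign-flip code was tested on simulated data. Replicate lists covered nearly the same sites, and how they were made is not stated. Their spread therefore cannot stand for the error between mice, and p-values cover these libraries. Python 3.11.15, numpy 2.4.6, pandas 2.3.3 and matplotlib 3.10.9 were used.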

Additional observations from a re-analysis of the deposited data

Results flagged for a closer look

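In 3 comparisons every library of one population moved opposite to every library of another between the arms, and in each the difference between populations was not tested. The gene-end share of the strongest peaks was higher with G9ai in CD24neg (30% against 21%) and lower in CD24low (23.5% against 33.75%), the shorter list having the higher share in both, a gap of 19.25 points between the arm differences. In CD24neg, G9ai replicate 2 had 43 such peaks and the Vehicle library 42. The rest of the lists moved the same way, with 17.2% against 14.8% in CD24neg and 16.4% against 23.2% in CD24low. The share of strongest peaks listed in another population of the same arm was lower with G9ai in CD24low (5.75% against 24.25%) and higher in CD24high (23.75% against 10%), a gap of -32.25 points. The rest of the same lists moved the same way, with 10.05% against 23.9% in CD24low and 15.4% against 12.9% in CD24high. The share listed in another population of the opposite arm was higher with G9ai in CD24low (17% against 9%) and lower in CD24high (9.25% against 13.5%), a gap of 12.25 points. In the rest of the lists the shares were 20.6% against 10.4% in CD24low and 13.3% against 11.3% in CD24high. CD24neg Vehicle and CD24high Vehicle had 1 library each. List lengths moved with all 3: CD24neg had 4073 and 4049 autosomal peaks with G9ai and 8665 with Vehicle, CD24low 7204 and 7189 with G9ai and 2505 and 2499 with Vehicle, CD24high 2744 and 2763 with G9ai and 12751 with Vehicle. Their part in the result was not tested.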

How the results depend on the processing

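The excess of strongest peaks near gene ends stayed positive under all 10 alternatives, from 4.74 points with 400 peaks per library to 15.3 with 100, with exact p of 0.03125 to 0.0625, and from 6.32 to 9.27 without 1 library. The difference in same-arm recurrence turned to -1.27 with 100 peaks and -1.20 with the top 2% of each list, and ranged from -0.404 to 1.79 without 1 library. The difference in opposite-arm recurrence turned to 0.504 with 100 peaks and 0.0519 with 400, and ranged from -0.548 to 0.135 without 1 library. The values 1.79 and 0.135 are means of 5 groups. The arm difference in gene-end share ranged from -2.75 (a mean of 2 populations) to 4 without 1 library. It was 0.0833 with 400 peaks, 6.25 with the top 2% and 2.89 for promoter windows. The cause of these changes was not tested. With the replicate block, which pairs libraries by number, it was 5.92 (exact p = 0.5); the numbers do not pair mice in the labels. The width ratio was 2.06 with 100 peaks, 1.38 with 400 and 1.99 with the top 2%. Sharing of the strongest peaks by replicates was 23.1% to 27.0%. Ranking by the mean of both libraries, the peak centre, and promoter windows for the arm difference were chosen after seeing the data. Depth is unknown, the lists of opposite arms share few sites, and 2 groups had 1 library.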

Other observations

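Chromosome 13 held 5.96% of the strongest peaks and 4.15% of the rest (means of 6 groups), with the strongest higher in 6 of 6 groups by 1.81 ± 0.594 points (SD), the only one of 19 autosomes with 6 of 6; it was picked after all 19 were seen, so no test is given.

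Regions without a gene within 1000 bp also recurred. One near the assembled start of chromosome 9 (chr9:3018320-3018390) ranked 427 and 8 in CD24low Vehicle and 10 in CD24high Vehicle. Another, on chromosome 13 (chr13:3373057-3373340), ranked 115 and 1289 in CD24low Vehicle and 22 in CD24high Vehicle. Peaks were not screened here for repeated sequence or unreliable mapping, so whether such sites are open chromatin was not tested. A region on chromosome 4 (chr4:143099355-143099956), 7435 bp from a gene end, was strongest in both arms of CD24neg, at ranks 2476 and 104 with G9ai and 21 with Vehicle.

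Hairpins of several miRNAs lay within 1000 bp of a strongest peak. Mir203, known from epithelial differentiation, had one in CD24neg G9ai replicate 3 (rank 62), and the neighbours Mir132 and Mir212 shared one in CD24low G9ai replicate 2 (rank 123). Mir6936 was the only one with a strongest peak in both replicates of a group, CD24neg G9ai, at ranks 195 and 99. Strongest peaks rarely lay near each other: 0 to 10 of the 200 per library were within 10000 bp of another.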
